A study of Mus musculus with 8 samples.

Results

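Insulin signaling and FoxO genes were followed in inguinal white adipose tissue (iWAT) of mice lacking YTHDF1 in adipocytes. The set holds 10 genes taken by symbol, Insr, Irs1, Irs2, Pik3r1, Akt2, Tbc1d4, Slc2a4, Foxo1, Foxo3 and Depp1, of 17264 gene identifiers listed in the tables, and all 10 passed the filter on low values in both assays. YTHDF1 is a cytoplasmic reader of N6-methyladenosine (m6A) on mRNA, and the sequencing was done to compare transcripts and ribosome occupancy with and without it. Polyadenylated RNA was measured by RNA-seq, and fragments protected by ribosomes were measured by Ribo-seq, from divided tissue lysates. Y1cKO mice carried Ythdf1 flox/flox with Adipoq-Cre, a Cre recombinase expressed in adipocytes, and Y1CTL mice carried Ythdf1 flox/flox without Cre. Both groups were male C57BL/6 mice, given as 9-week old, with exon 4 of Ythdf1 flanked by loxP sites, and both were kept at 4 °C for 7 days. Each genotype had 2 libraries per assay, 8 in all. The libraries were made from whole tissue, so fewer cells of a type and less RNA per cell cannot be told apart. The labels do not say whether libraries of 1 group came from separate animals, and p-values then measure only the spread between these libraries.

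In an adipocyte, insulin binds its receptor INSR, which phosphorylates the adaptors IRS1 and IRS2. These recruit phosphoinositide 3-kinase (PI3K) through its regulatory subunit PIK3R1, and the kinase AKT2 is activated in turn. AKT2 phosphorylates TBC1D4 and thereby lets the glucose transporter GLUT4, encoded by Slc2a4, reach the cell surface, and it phosphorylates the transcription factors FOXO1 and FOXO3, which then leave the nucleus. When insulin is low, nuclear FoxO proteins raise the transcription of target genes, among them Irs2 and Insr themselves. Depp1 is a FoxO-induced gene in human cells, where it has been linked to autophagy.

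Levels are given as RPKM (reads per kilobase, scaled to sequencing depth), over the transcript for RNA-seq and over the coding sequence for Ribo-seq. The RNA-seq libraries held 12211351 and 16429015 reads in Y1cKO and 3958284 and 4963613 reads in Y1CTL, and the Ribo-seq libraries held 7364523 to 11862838 reads. Member values rested on 68 to 11445 reads in RNA-seq and on 31 to 5244 reads in Ribo-seq. Ythdf1 had 7.17 and 7.98 RPKM in Y1cKO against 8.01 and 11.5 RPKM in Y1CTL by RNA-seq, and 12.7 and 15.7 RPKM against 17.3 and 16.0 RPKM by Ribo-seq, values that cover the whole gene and not the deleted exon. All 10 adipocyte markers were detected in every library. The sums of several marker lists separated single RNA-seq libraries or the genotypes. Markers of T cells, B cells and lymph node (13 of 14 found) summed to 3.55 and 2.82 RPKM in Y1cKO and to 3.08 and 249.1 RPKM in Y1CTL, and skeletal muscle markers (14 of 14 found) to 280.5 and 5.95 RPKM in Y1cKO and to 3.67 and 6.64 RPKM in Y1CTL. Several defining markers were at 0 in the low libraries, among them Cd3e and Ms4a1 in Y1CTL replicate 1 and Ckm in Y1cKO replicate 2. By Ribo-seq the same lymphoid markers summed to 788 to 1014 RPKM in all 4 libraries, so the assays differed in these transcripts, and the part of this in TE and in footprints over transcripts was not tested. By RNA-seq the sums of both Y1cKO libraries lay on 1 side of the sums of both Y1CTL libraries for 3 lists. Adipocyte markers summed to 24340 and 22830 RPKM in Y1cKO against 19040 and 11470 RPKM in Y1CTL, progenitor and fibroblast markers (6 of 6 found, none at 0) to 345 and 199 RPKM against 162 and 134 RPKM, and beige and brown adipocyte markers (7 of 7 found, none at 0) to 388.5 and 1375 RPKM against 1475 and 2792 RPKM. A sum can rest on a few high genes. The median of the beige and brown adipocyte markers overlapped by RNA-seq, at 20.9 and 117.6 RPKM in Y1cKO against 98.97 and 280.4 RPKM in Y1CTL. By Ribo-seq the sums overlapped for these 3 lists, with beige and brown adipocyte markers at 9824 and 7750 RPKM in Y1cKO against 10320 and 4038 RPKM in Y1CTL. Macrophage markers summed to 66.55 to 133.4 RPKM by RNA-seq and to 2517 to 3106 RPKM by Ribo-seq. Endothelial markers summed to 184.5 to 269.2 RPKM and to 219.2 to 381.9 RPKM. The part of these lists in the differences of the 10 genes was not tested.

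The promoters of Irs2 and Depp1 are shown because these genes differed most between the genotypes, Irs2 in its transcript and Depp1 in its footprints. The sequences are from RefSeq (GRCm38.p6) and run from 250 bases before to 50 bases after the start of the gene, 5′ to 3′. The Irs2 promoter is at chr8:11008880-11009179 on the minus strand and the Depp1 promoter is at chr6:116650434-116650733 on the plus strand. Capitals mark TGTTT in Irs2, which starts 37 bases before the gene start, and GTAAATA in Depp1, which starts 181 bases before it.
Irs2: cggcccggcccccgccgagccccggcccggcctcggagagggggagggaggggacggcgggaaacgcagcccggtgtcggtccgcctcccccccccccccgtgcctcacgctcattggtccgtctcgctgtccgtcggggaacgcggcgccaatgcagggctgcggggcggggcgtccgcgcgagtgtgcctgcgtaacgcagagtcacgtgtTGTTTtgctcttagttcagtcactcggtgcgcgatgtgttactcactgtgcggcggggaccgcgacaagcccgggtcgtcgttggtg
Depp1: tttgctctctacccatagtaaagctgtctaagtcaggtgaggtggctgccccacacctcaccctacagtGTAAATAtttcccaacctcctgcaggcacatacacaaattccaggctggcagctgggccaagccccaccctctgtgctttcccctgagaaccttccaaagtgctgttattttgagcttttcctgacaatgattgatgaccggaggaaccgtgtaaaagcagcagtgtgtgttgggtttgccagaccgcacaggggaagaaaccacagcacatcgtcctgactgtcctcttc

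Of the 10 genes, 8 matched the RefSeq promoter table, with 12 promoters. The table held no promoter for Insr or Slc2a4. Both strands were searched for GTAAACA, the core bound by forkhead proteins, and for the shorter TGTTT, which is part of that core read on the other strand. GTAAACA was in 0 of the 12 promoters and in 3.65% of 32851 mouse promoters. TGTTT was in 7 of the 12, belonging to Irs1, Irs2, Akt2, Tbc1d4 and Foxo1, and in 50.5% of all promoters. GTAAATA, a forkhead variant searched after the sequences had been read, was in 2 of the 12, belonging to Depp1 and Akt2, and in 3.04% of all promoters. A match describes letters in this window and is not a bound site.

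The transcripts of the set were long. By the files' own gene models, 8 of 10 had a longer transcript than the median gene (2884 bases), 9 a longer coding sequence (median 1338 bases), 8 a longer 5′ leader (median 167 bases) and 7 a longer 3′ untranslated region (median 904 bases). Foxo1 had the longest 3′ untranslated region, 6243 bases, longer than in 98.3% of genes. Irs1 had a leader of 923 bases, while its relative Irs2 had 28 bases and Tbc1d4 had 26 bases. Depp1 was the shortest, with a transcript of 1339 bases and a coding sequence of 615 bases.

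The 10 genes spanned a wide range of levels. By RNA-seq, Slc2a4 was the highest with a mean of 129.8 RPKM over the 4 libraries, followed by Akt2 (89.4), Pik3r1 (84.7), Insr (25.6), Irs1 (20.6), Tbc1d4 (18.6), Depp1 (17.6), Foxo1 (14.5), Irs2 (8.14) and Foxo3 (6.50 RPKM). The 4-library ranges were apart for 2 of the 9 neighbouring pairs in this order, Slc2a4 with Akt2 and Pik3r1 with Insr, and for 1 after scaling the libraries to the same median. By Ribo-seq, Slc2a4 led again with a mean of 266.6 RPKM, followed by Pik3r1 (126.4), Akt2 (113.6), Foxo1 (35.5), Insr (34.0), Tbc1d4 (20.65), Depp1 (14.9), Foxo3 (11.95), Irs1 (11.7) and Irs2 (3.69 RPKM). Here 4 of 9 neighbouring pairs were apart, Slc2a4 with Pik3r1, Akt2 with Foxo1, Insr with Tbc1d4 and Irs1 with Irs2. The transporter and the PI3K and AKT genes thus lay at the top in both assays, and the adaptor Irs2 at or near the bottom.

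**Figure D1:**
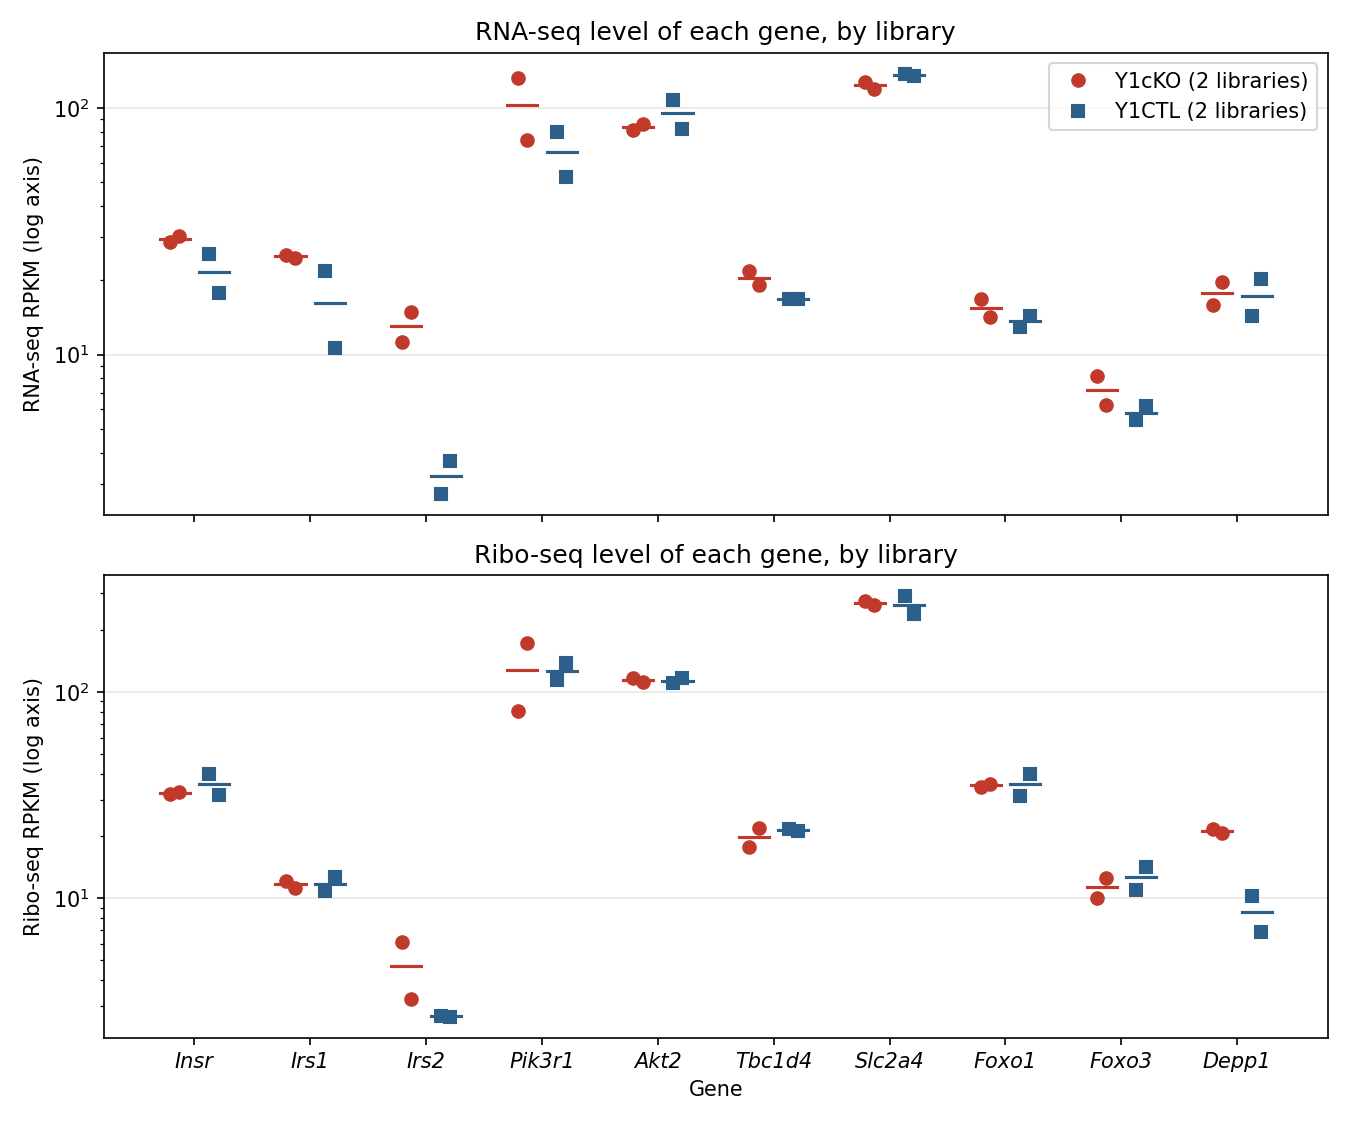
RPKM (log axis) of each of the 10 genes by RNA-seq (top) and Ribo-seq (bottom), with 1 point per library, Y1cKO as red circles left of Y1CTL as blue squares, and a line at each mean. The Irs2 transcript separates the genotypes by RNA-seq (11.3 and 14.9 against 2.72 and 3.70 RPKM) and Depp1 by Ribo-seq (21.7 and 20.7 against 10.3 and 6.84 RPKM).

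Irs2, which encodes the adaptor that links the insulin receptor to PI3K, differed most in its transcript. By RNA-seq it had 11.3 RPKM (870 reads) and 14.9 RPKM (1545 reads) in Y1cKO, against 2.72 RPKM (68 reads, 95% exact Poisson interval 2.11 to 3.44) and 3.70 RPKM (116 reads, 3.05 to 4.43) in Y1CTL. Both Y1cKO libraries lay far above both Y1CTL libraries. The means were 13.1 ± 2.55 RPKM in Y1cKO and 3.21 ± 0.692 RPKM in Y1CTL (SD, n = 2 each), 4.08 times as high. The log2 fold change, on the log2(RPKM + 0.5) scale, which understates changes of low genes, was 1.87 (SE 0.25), which ranked 27 from the highest among 12435 genes. Its unadjusted p ranked 7 among all genes, and the adjusted p was 0.401 (limma, Benjamini-Hochberg over all genes), so the difference did not pass the test. Left out in turn, Y1CTL replicate 1 gave a log2 fold change of 1.68 and Y1CTL replicate 2 gave 2.06. In these fits the lone Y1CTL library was assumed to vary as the Y1cKO libraries do. With neither Y1cKO replicate 1 nor Y1CTL replicate 2, the RNA-seq libraries with muscle or lymphoid transcripts, the log2 fold change was 2.26, with no test.

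Footprints on Irs2 had a smaller fold change. By Ribo-seq it had 6.15 RPKM (232 reads) and 3.24 RPKM (116 reads) in Y1cKO, against 2.70 RPKM (127 reads) and 2.67 RPKM (78 reads) in Y1CTL. Both Y1cKO libraries were above both Y1CTL libraries, and the second only narrowly. The log2 fold change of 0.65 (SE 0.30, adjusted p = 1.00 from limma) was 0.23 without Y1cKO replicate 1 and 1.06 without Y1cKO replicate 2.

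Depp1 showed the opposite arrangement, with footprints that separated the genotypes and transcripts that overlapped. By Ribo-seq it had 21.7 RPKM (127 reads) and 20.7 RPKM (115 reads) in Y1cKO, against 10.3 RPKM (75 reads, 95% exact Poisson interval 8.09 to 12.9) and 6.84 RPKM (31 reads, 4.65 to 9.71) in Y1CTL. The Y1cKO libraries were close to each other and above both Y1CTL libraries. The means were 21.2 ± 0.718 RPKM in Y1cKO and 8.56 ± 2.43 RPKM in Y1CTL (SD, n = 2 each), 2.48 times as high. The log2 fold change was 1.29 (SE 0.21), which ranked 7 from the highest among 12602 genes, and its unadjusted p was the smallest of all. The adjusted p was nevertheless 1.00 (limma, over all genes). It ranged from 0.0119, without Y1CTL replicate 1 (log2 fold change 1.56), to 1.00. Without Y1CTL replicate 2, the library with 31 reads, the log2 fold change was 1.01 (adjusted p = 0.0973 from limma). This Ribo-seq difference was already known when the genes were chosen, and it stands here as a description.

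The Depp1 transcript had 15.9 and 19.7 RPKM in Y1cKO against 14.3 and 20.3 RPKM in Y1CTL by RNA-seq. The groups overlapped, with a log2 fold change of 0.05 (SE 0.24, adjusted p = 0.946 from limma) that turned to -0.12 when the libraries were scaled to the same median. It was 0.44 with neither Y1cKO replicate 1 nor Y1CTL replicate 2, with no test. Across the 8 libraries, after each assay's mean was removed, the genes most like Depp1 among 11792 were Hsd17b14 (Pearson's r = 0.958), Ube3b (0.955) and Pts (0.931). Pts, an enzyme of tetrahydrobiopterin synthesis, had 61.6 and 53.8 RPKM in Y1cKO against 44.1 and 38.0 RPKM in Y1CTL by Ribo-seq. These correlations come from the same libraries and carry no test.

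The receptor and the other adaptor had higher transcripts in both Y1cKO libraries and footprints that overlapped. Insr had 28.7 and 30.4 RPKM in Y1cKO against 25.5 and 17.8 RPKM in Y1CTL by RNA-seq, where both Y1cKO libraries were the higher ones (log2 fold change 0.46, SE 0.22, adjusted p = 0.470 from limma). Without Y1CTL replicate 2 the log2 fold change was 0.21, and without Y1CTL replicate 1 it was 0.71. By Ribo-seq Insr had 31.9 and 32.9 RPKM in Y1cKO, between the 39.9 and 31.5 RPKM of Y1CTL. Irs1 had 25.3 and 24.7 RPKM in Y1cKO against 21.8 and 10.6 RPKM in Y1CTL by RNA-seq (log2 fold change 0.70, SE 0.34, adjusted p = 0.470 from limma). Its distance rested on Y1CTL replicate 2. Without that library the log2 fold change was 0.19, and without Y1CTL replicate 1 it was 1.20, in fits with a lone Y1CTL library. By RNA-seq, Y1CTL replicate 2 also had the lowest sum of adipocyte markers and the highest of lymphoid markers, whose part in these values was not tested. By Ribo-seq Irs1 had 12.2 and 11.3 RPKM in Y1cKO against 10.8 and 12.6 RPKM in Y1CTL, with equal means of 11.7 RPKM.

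Pik3r1, the regulatory subunit p85α of PI3K, varied widely between libraries of a genotype. By RNA-seq it had 132 and 74.3 RPKM in Y1cKO against 80.1 and 52.7 RPKM in Y1CTL. The groups overlapped, and the log2 fold change of 0.60 (SE 0.35, adjusted p = 0.511 from limma) was 0.19 without Y1cKO replicate 1, 1.01 without Y1cKO replicate 2, 0.30 without Y1CTL replicate 2 and -0.11 with neither Y1cKO replicate 1 nor Y1CTL replicate 2. Its footprints came to 80.5 and 173 RPKM in Y1cKO, on both sides of the 114 and 138 RPKM in Y1CTL. Among the Y1cKO libraries the higher one was numbered 1 by RNA-seq and 2 by Ribo-seq. In the Y1cKO RNA-seq tables the header of the value column names the opposite replicate, and the sample titles were followed here. Akt2, the AKT kinase best known for insulin action in fat, was far steadier in its footprints, with 117 and 112 RPKM in Y1cKO against 110 and 116 RPKM in Y1CTL. Its transcript had 81.4 and 85.7 RPKM in Y1cKO against 108 and 82.2 RPKM in Y1CTL, which overlapped.

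The glucose uptake genes differed by little between the genotypes, Slc2a4 downward and Tbc1d4 upward by RNA-seq. Slc2a4 had 128 and 119 RPKM in Y1cKO against 137 and 135 RPKM in Y1CTL by RNA-seq. Both Y1cKO libraries were below both Y1CTL libraries by little, which held for no other gene of the set in that assay (log2 fold change -0.14, SE 0.18, adjusted p = 0.754 from limma). Skeletal muscle also expresses Slc2a4, and the Y1cKO library with muscle transcripts gave the value of 128 RPKM. The part of muscle in this value was not tested. By Ribo-seq Slc2a4 had 276 and 263 RPKM in Y1cKO against 289 and 238 RPKM in Y1CTL. Tbc1d4, the AKT substrate that holds GLUT4 vesicles back, had 21.8 and 19.1 RPKM in Y1cKO against 16.8 and 16.8 RPKM in Y1CTL by RNA-seq, without overlap (log2 fold change 0.27, SE 0.18, adjusted p = 0.548 from limma). Its footprints came to 17.8 and 21.9 RPKM in Y1cKO against 21.6 and 21.3 RPKM in Y1CTL, with overlap.

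The FoxO factors themselves had small differences. Foxo1 had 16.7 and 14.1 RPKM in Y1cKO against 12.9 and 14.4 RPKM in Y1CTL by RNA-seq, and 34.6 and 35.9 RPKM in Y1cKO against 31.4 and 40.1 RPKM in Y1CTL by Ribo-seq. The groups overlapped in both assays. Foxo3 had 8.16 and 6.24 RPKM in Y1cKO against 5.42 and 6.18 RPKM in Y1CTL by RNA-seq, where the nearest libraries of the groups almost touched (log2 fold change 0.28, SE 0.23, adjusted p = 0.621 from limma). Without Y1cKO replicate 1 this was 0.10 and without Y1cKO replicate 2 it was 0.46. By Ribo-seq Foxo3 had 10.01 and 12.6 RPKM in Y1cKO against 11.0 and 14.2 RPKM in Y1CTL, with overlap. These are transcript and footprint levels, and the phosphorylation or location of the FoxO proteins was not measured by these assays.

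Read over the whole set, the RNA-seq and Ribo-seq comparisons gave different pictures. By RNA-seq 8 of 10 genes had a log2 fold change above 0, beside 8356 of all 12435 genes. The median of the 10 was 0.28 beside 0.17 over all genes tested. Scaling to the same median removed the general shift of 0.17, and the log2 fold changes were then 1.71 for Irs2, 0.53 for Irs1, 0.43 for Pik3r1, 0.29 for Insr, 0.12 for Foxo3, 0.10 for Tbc1d4, 0.0018 for Foxo1, -0.12 for Depp1, -0.31 for Slc2a4 and -0.35 for Akt2. Both Y1cKO libraries were above both Y1CTL libraries for 5 of the 10 (Insr, Irs1, Irs2, Tbc1d4 and Foxo3), beside 36.9% of all genes, and below for 1 (Slc2a4), beside 10.7%. At an unadjusted p under 0.05, 1 was higher (Irs2), beside 10% of all genes, and 0 were lower, beside 1.79%. At an adjusted p under 0.05, limma called 0 of the 10 and 0% of 12435 genes, 1468 of which had an unadjusted p under 0.05. Apart from the size of the Irs2 difference, these shares lay near those of all genes.

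By Ribo-seq 8 of the 10 genes had log2 fold changes between -0.15 and 0.04, and 8 overlapped between the genotypes. The median was -0.0030 beside 0.0071 over all genes. Both Y1cKO libraries were higher for 2 of the 10 (Irs2 and Depp1), beside 15.4% of all genes, and lower for 0, beside 14.1%. At an unadjusted p under 0.05, 1 was higher (Depp1), beside 1.62% of all genes, and 0 were lower, beside 1.13%. Depp1 was chosen with its Ribo-seq difference known, so both counts hold it by choice and are no result about the set. Limma again called 0 of the 10 and 0% of 12602 genes at an adjusted p under 0.05, with 347 at an unadjusted p under 0.05. An exact permutation test of 1 gene with 2 libraries against 2 cannot go below p = 0.333, so single values had no such test.

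**Figure D2:**
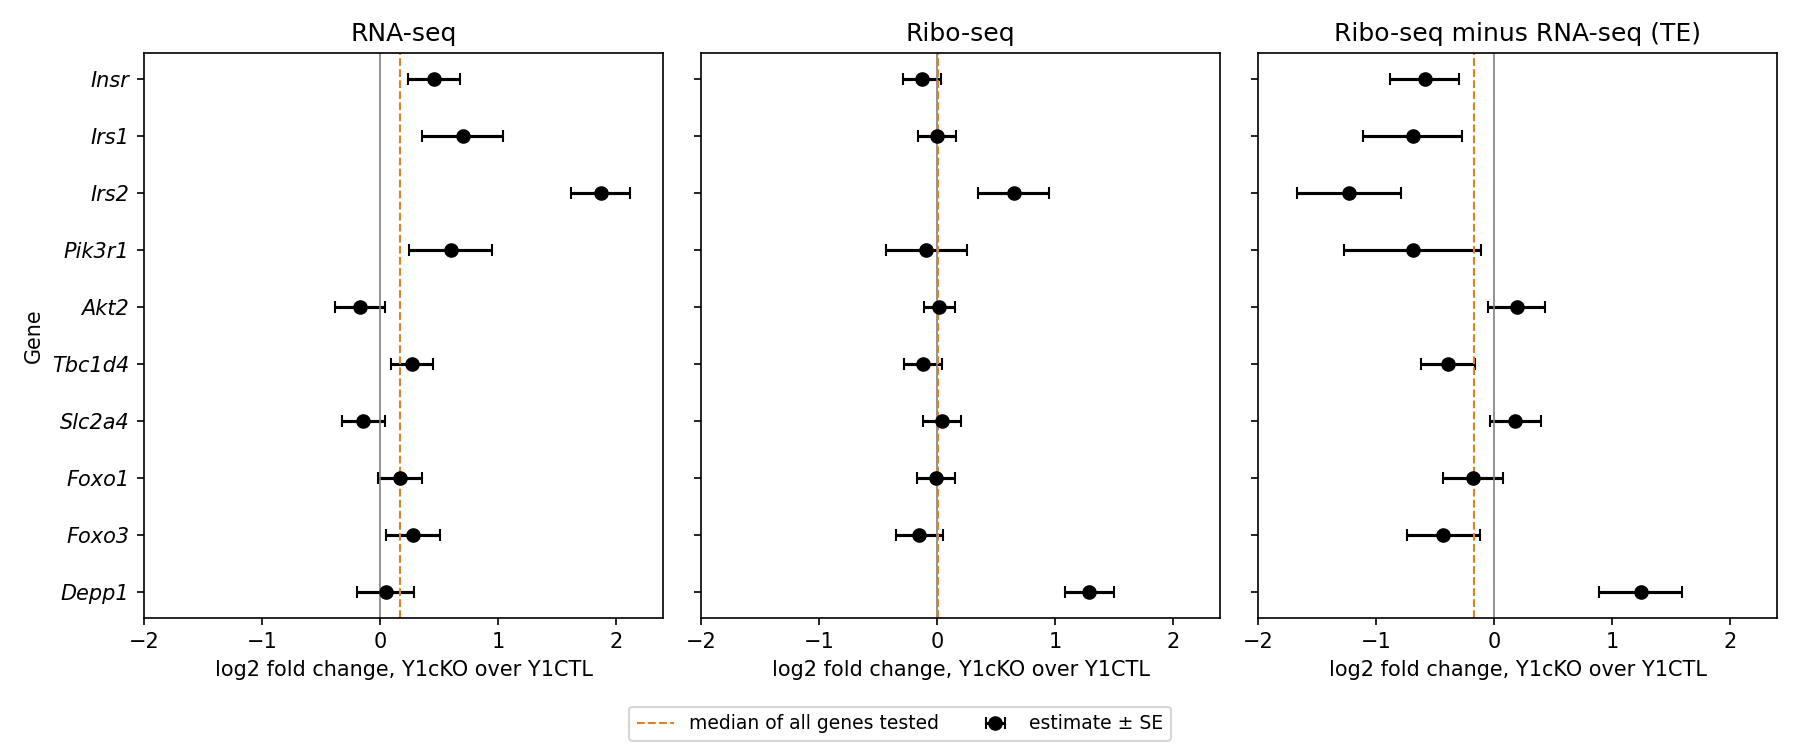
Log2 fold change of Y1cKO over Y1CTL (points, with SE bars from limma) for the 10 genes by RNA-seq, by Ribo-seq and for the difference between both (TE). The dashed line is the median of all genes tested (0.17, 0.0071 and -0.17 from left to right), Irs2 lies far right by RNA-seq at 1.87, and Depp1 lies far right by Ribo-seq at 1.29 and for TE at 1.24.

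Values for translational efficiency (TE) are its log2 change between the genotypes. This change is the Ribo-seq difference minus the RNA-seq difference, fitted over all 8 libraries. For Depp1 it was 1.24 (SE 0.35, adjusted p = 0.563 from limma) and for Irs2 it was -1.23 (SE 0.44, adjusted p = 0.563 from limma), so the members with the largest differences lay at opposite ends. These 2 had an unadjusted p under 0.05, 1 higher beside 1.53% of all genes and 1 lower beside 7.12%. The higher one is Depp1, whose Ribo-seq difference was known when the genes were chosen, so this count is no result about the set. At an adjusted p under 0.05, limma called 0 of the 10 and 0% of 11792 genes, with 1021 at an unadjusted p under 0.05. The other 8 ranged from -0.69 (Irs1 and Pik3r1) to 0.19 (Akt2). Of the 10, 7 were below 0 and 3 above, beside 4086 of all 11792 genes above 0. The median was -0.41 beside -0.17 over all genes. Leaving out the RNA-seq and Ribo-seq libraries of Y1CTL replicate 1 together gave 1.76 for Depp1 and -1.30 for Irs1. Leaving out those of Y1CTL replicate 2 gave 0.72 for Depp1 and -0.08 for Irs1. For Irs2 the value was -1.83 without both libraries of Y1cKO replicate 1 and -0.62 without both of Y1cKO replicate 2. Each of these fits leaves 1 library per assay in a group. With neither RNA-seq library with muscle or lymphoid transcripts, and with all 4 Ribo-seq libraries, which hold lymphoid transcripts, TE was 0.84 for Depp1, -1.61 for Irs2 and -0.17 for Irs1.

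Within each genotype, footprints over transcripts (the mean log2 Ribo-seq level minus the mean log2 RNA-seq level) were below the median of all genes for most of the set. The median gene had 0.85 in Y1cKO and 1.02 in Y1CTL, and 2 of 10 members were above it in each genotype, Slc2a4 (1.12) and Foxo1 (1.17) in Y1cKO and Foxo1 (1.35) and Foxo3 (1.05) in Y1CTL. The adaptors were low, with -1.06 in Y1cKO and -0.37 in Y1CTL for Irs1 and -1.43 in Y1cKO and -0.21 in Y1CTL for Irs2. Depp1 had 0.25 in Y1cKO and -0.98 in Y1CTL, the lowest Y1CTL value of the set. Akt2 had 0.45 in Y1cKO and 0.26 in Y1CTL. The assays divide by different lengths, so the sign of a single value has no meaning of its own, and only its place among genes can be read.

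**Figure D3:**
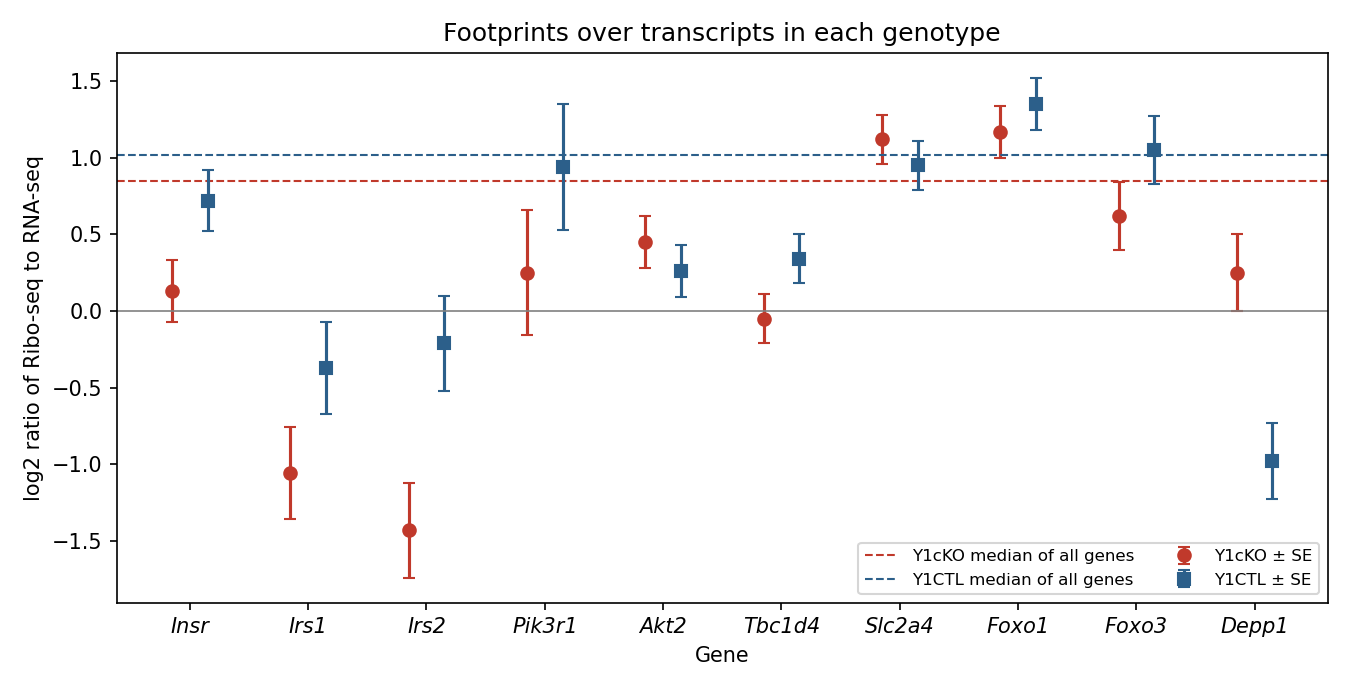
Log2 ratio of Ribo-seq to RNA-seq level for the 10 genes (points with SE bars from the limma fit), Y1cKO in red left of Y1CTL in blue, with dashed lines at the median of all genes (0.85 in Y1cKO and 1.02 in Y1CTL). Irs2 lies lower in Y1cKO (-1.43 against -0.21 in Y1CTL) and Depp1 lies higher in Y1cKO (0.25 against -0.98 in Y1CTL).

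Among the paralogs compared, those outside the set were mostly the lesser forms in this tissue, except Irs3 and, by RNA-seq beside Foxo3, Foxo4. Akt2 (mean 89.4 RPKM by RNA-seq and 113.6 by Ribo-seq) was above Akt1 (39.8 and 27.7 RPKM). Pik3r1 was above Pik3r2 (13.4 and 6.73 RPKM) and Pik3r3 (2.86 and 0.499 RPKM), and Insr was above Igf1r (3.98 and 5.48 RPKM). Among the adaptors Irs3, which mice have and humans lack as a working gene, had 22.0 RPKM by RNA-seq and 16.6 RPKM by Ribo-seq, beside 20.6 and 11.7 RPKM for Irs1. Irs3 had 30.2 and 26.9 RPKM in Y1cKO against 22.4 and 8.36 RPKM in Y1CTL by RNA-seq, and 16.1 and 15.3 RPKM in Y1cKO against 17.0 and 18.0 RPKM in Y1CTL by Ribo-seq. As with Irs1, the lowest transcript value was in Y1CTL replicate 2. Of the other FoxO factors, Foxo4 had means of 7.96 RPKM by RNA-seq and 3.57 RPKM by Ribo-seq, beside 6.50 and 11.95 RPKM for Foxo3. Foxo6 had 0.402 and 0.185 RPKM, below the filter. Slc2a1, which encodes the basal transporter GLUT1, had 3.73 RPKM by RNA-seq and 22.7 RPKM by Ribo-seq, below Slc2a4 in both.

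**Figure D4:**
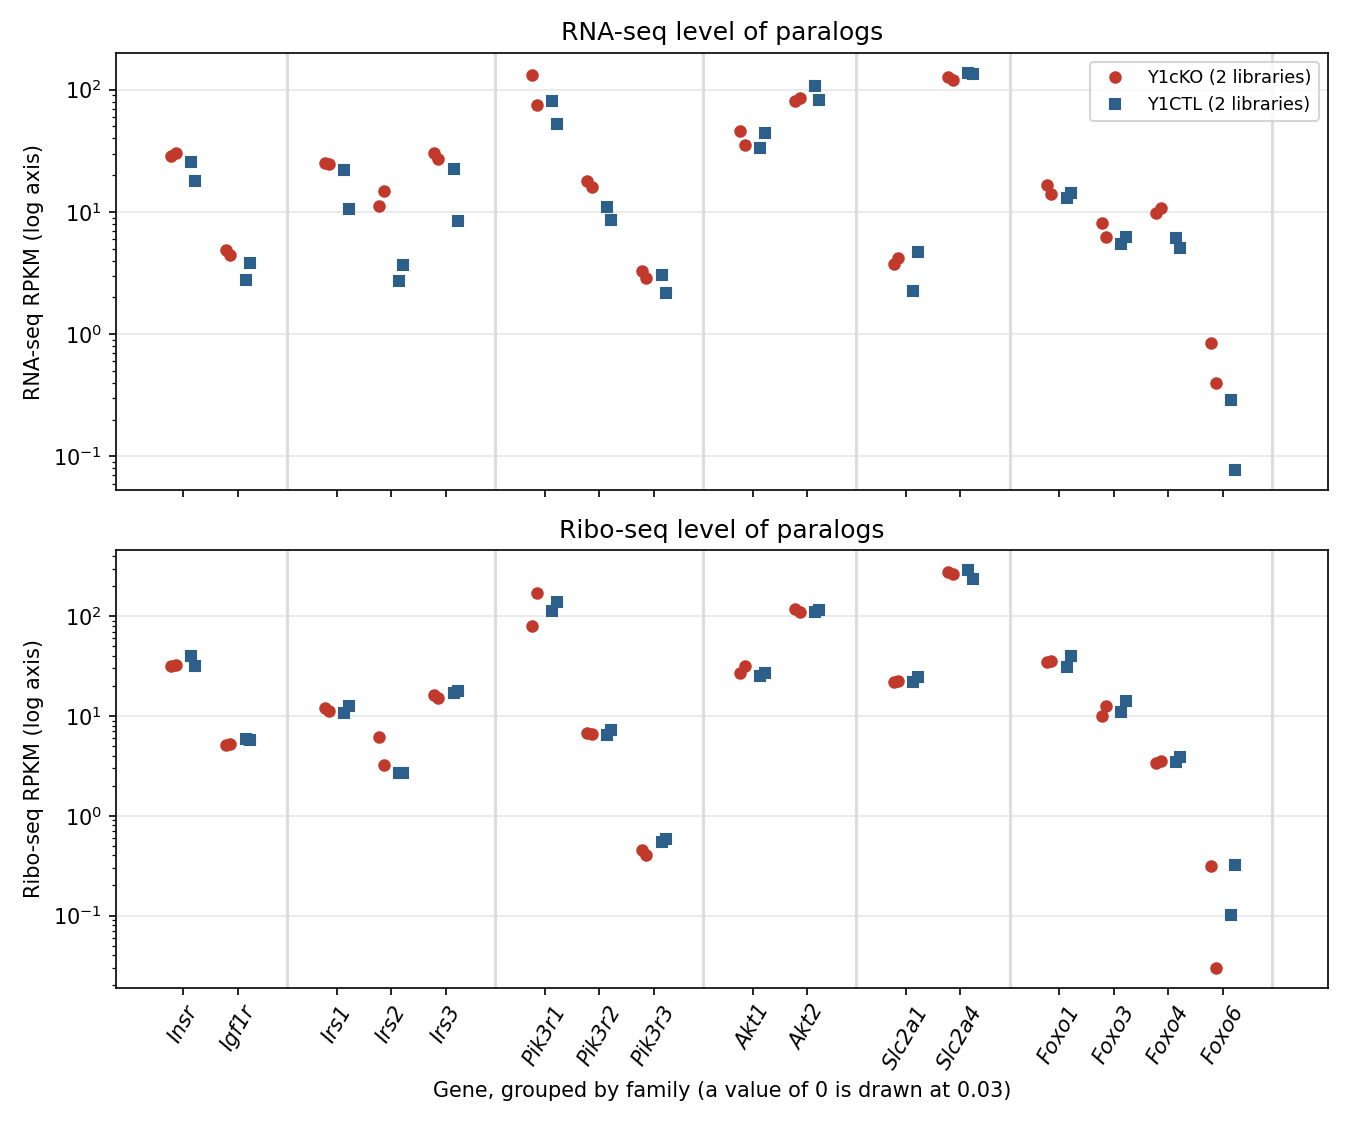
RPKM (log axis) by library of genes of the set and paralogs by RNA-seq (top) and Ribo-seq (bottom), Y1cKO as red circles left of Y1CTL as blue squares. Akt2, Pik3r1, Insr and Slc2a4 lie above the paralogs shown in all 8 libraries, while Irs2 lies below Irs1 and Irs3 by RNA-seq in all 4 libraries.

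Another 96 genes around the pathway were counted in lists written from general knowledge. At an unadjusted p under 0.05, 9 of the 94 tested by RNA-seq were higher in Y1cKO (9.57%, beside 10% of all genes) and 0 were lower (beside 1.79%). By Ribo-seq 3 of 92 were higher (3.26%, beside 1.62%) and 0 were lower (beside 1.13%). For TE 8 of 92 were lower (8.70%, beside 7.12%) and 0 were higher (beside 1.53%). Limma called 0 at an adjusted p under 0.05 in each comparison. The RNA-seq share was thus close to the background, and the Ribo-seq share above it rested on 3 genes.

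FoxO targets are genes whose transcription nuclear FoxO proteins are known to raise. Of 24 listed, 23 were tested by RNA-seq and 16 were above 0, beside 8356 of all 12435 genes. The median log2 fold change was 0.38 beside 0.17 over all genes. Both Y1cKO libraries were above both Y1CTL libraries for 13 and below for 4 of the 23, beside 36.9% and 10.7% of all genes. At an unadjusted p under 0.05, 4 of the 23 were higher, beside 10% of all genes, Eif4ebp1, Cdkn1a, Pink1 and Txnip (the last pair named after their values were seen). Eif4ebp1, the translation repressor 4E-BP1, had 49.1 and 57.7 RPKM in Y1cKO against 28.2 and 20.6 RPKM in Y1CTL (log2 fold change 1.13, SE 0.22, adjusted p = 0.401 from limma), and its footprints overlapped, with 260.3 and 227 RPKM in Y1cKO against 227 and 241 RPKM in Y1CTL. Cdkn1a, the cell cycle inhibitor p21, had 31.3 and 28.1 RPKM in Y1cKO against 19.5 and 13.9 RPKM in Y1CTL by RNA-seq. On the other side, Pdk4, a kinase that restrains glucose oxidation, had 40.5 and 120.6 RPKM in Y1cKO against 102.5 and 148 RPKM in Y1CTL, with overlap. Sod2, the mitochondrial superoxide dismutase, had 39.1 and 63.0 RPKM in Y1cKO against 67.6 and 88.9 RPKM in Y1CTL, without overlap. The target list thus held genes on both sides, 16 above 0 and 7 below. At an unadjusted p under 0.05, 0 of the 23 were lower, beside 1.79% of all genes.

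By Ribo-seq 22 FoxO targets were tested, with a median of 0.06 beside 0.0071 over all genes. Of these targets 12 were above 0, beside 6495 of all 12602 genes. At an unadjusted p under 0.05, 1 of the 22 was higher, beside 1.62% of all genes. This was Pink1, a kinase of mitophagy, with 74.0 and 60.4 RPKM in Y1cKO against 53.4 and 49.6 RPKM in Y1CTL (log2 fold change 0.37, SE 0.15). It was higher by RNA-seq too, with 57.6 and 70.2 RPKM in Y1cKO against 41.3 and 34.9 RPKM in Y1CTL. Txnip, which lowers glucose uptake, had 676 and 532 RPKM in Y1cKO against 347 and 521 RPKM in Y1CTL by Ribo-seq. For Txnip the nearest libraries of the groups were close.

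Among regulators of AKT, Trib3, a pseudokinase known to bind AKT, had 3.86 and 3.86 RPKM in Y1cKO against 2.06 and 2.56 RPKM in Y1CTL by Ribo-seq (log2 fold change 0.64, SE 0.21, adjusted p = 1.00 from limma). Its transcript was low, with 1.17 and 1.32 RPKM in Y1cKO against 1.25 and 1.09 RPKM in Y1CTL. Like Depp1, it thus had higher footprints without a separation of the groups by RNA-seq. Grb10, an adaptor that restrains the receptor, had 13.5 and 11.2 RPKM in Y1cKO against 8.59 and 5.81 RPKM in Y1CTL by RNA-seq, and 21.1 and 25.6 RPKM in Y1cKO against 22.3 and 25.1 RPKM in Y1CTL by Ribo-seq. Pik3r2, the other p85 subunit, had 17.8 and 16.1 RPKM in Y1cKO against 11.0 and 8.59 RPKM in Y1CTL by RNA-seq, with overlapping footprints. Foxo4 was likewise higher by RNA-seq alone, with 9.87 and 10.8 RPKM in Y1cKO against 6.15 and 5.03 RPKM in Y1CTL. Other genes went the other way. Trib2 had 4.70 and 4.61 RPKM in Y1cKO against 6.08 and 7.25 RPKM in Y1CTL by RNA-seq, without overlap. In the PI3K and AKT list, 7 of 18 were higher and 2 lower without overlap by RNA-seq, beside 36.9% and 10.7% of all genes. Of 14 receptor partners and brakes, 2 were higher and 5 lower without overlap by Ribo-seq, beside 15.4% and 14.1%.

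The lists of AKT effectors and of GLUT4 vesicle traffic had medians of 0.26 and 0.19 by RNA-seq and of 0.12 and 0.0 by Ribo-seq. Of the 15 effectors 14 were above 0 by RNA-seq, as were 8356 of all 12435 genes, whose median was 0.17, and several of the 14 lay under that median. Of the 16 traffic genes 12 were above 0 by RNA-seq and 8 by Ribo-seq. Aspscr1, the tether known as TUG that keeps GLUT4 inside the cell, had 15.5 and 13.8 RPKM in Y1cKO against 8.61 and 10.7 RPKM in Y1CTL by RNA-seq, with overlapping footprints. The receptor partners and brakes (14 genes), the PI3K and AKT list (18 genes) and the FoxO paralogs and regulators (9 of 10 tested) had RNA-seq medians of 0.14, 0.17 and 0.09, and Ribo-seq medians of -0.10, -0.02 and -0.11.

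**Figure D5:**
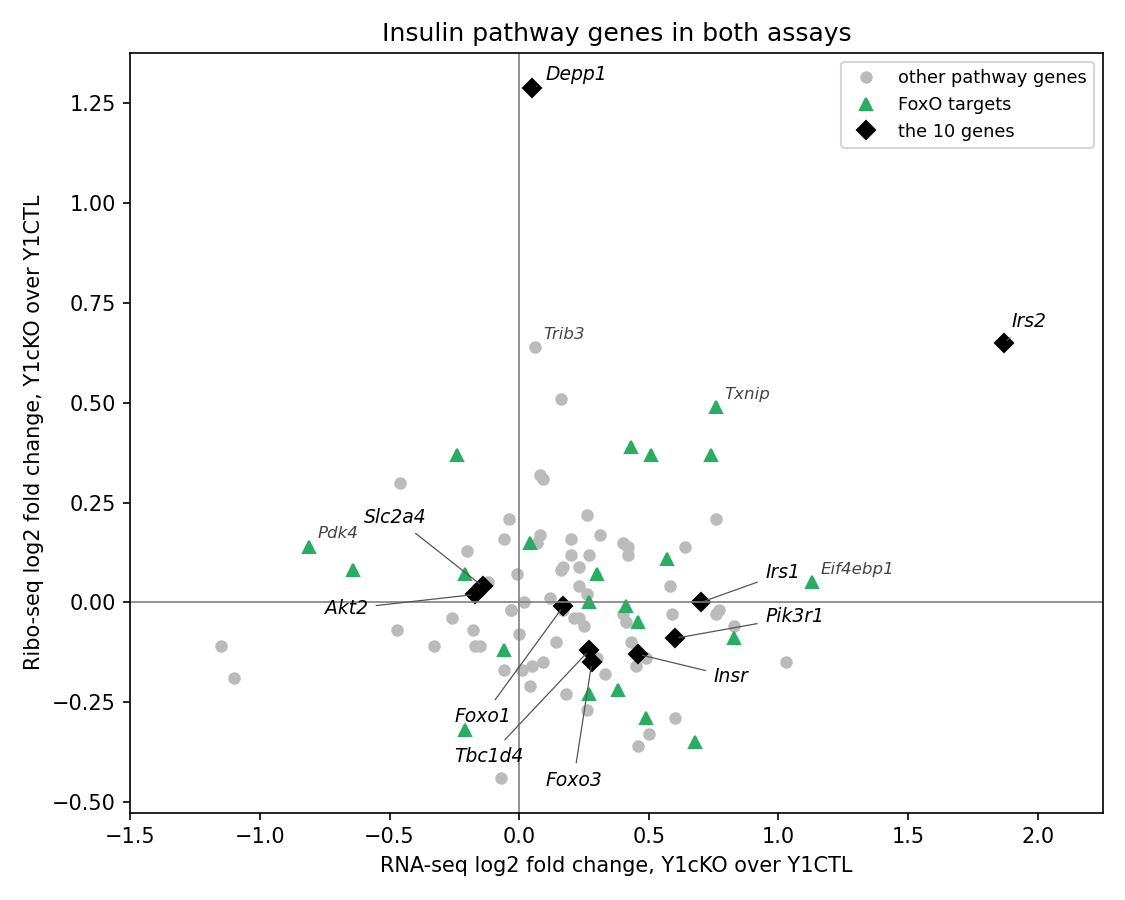
Log2 fold change of Y1cKO over Y1CTL by RNA-seq (x axis) and by Ribo-seq (y axis) for the 10 genes (black diamonds), FoxO targets (green triangles) and other pathway genes (grey circles) tested in both assays. Depp1 stands alone at the top (0.05 by RNA-seq and 1.29 by Ribo-seq) and Irs2 at the right (1.87 and 0.65), while Insr, Irs1, Pik3r1, Tbc1d4 and Foxo3 lie right of 0 and near 0 on the y axis.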

How the data were processed

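RNA-seq and Ribo-seq of iWAT gave 8 libraries, 2 per genotype and assay. The authors aligned reads to mm8 using HISAT2 2.2.1 and deposited expression as RPKM per gene. DESeq2 is listed in the submitters' processing notes without a role. The read counter and gene annotation release were not given in the sources used here. Every deposited value (100%) equalled a whole number of reads to within 0.01, which gave back the reads and depth. Intervals cover counting error only.

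Each assay was fitted alone by limma 3.58.1 (R 4.3.3) on log2(RPKM + 0.5), using an intensity trend and keeping genes whose mean reached 0.5 RPKM, with Benjamini-Hochberg adjustment over all genes. TE was the interaction of assay and genotype, with no block. The tests were checked on simulated libraries. Genes that a Ribo-seq table does not list were set to 0. Values were tabulated and plotted with Python 3.11.15, pandas 2.3.3 and matplotlib 3.10.9.

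The members and lists were chosen with earlier results of these data known. Named were all 10 members, the 2 genes of each list with the smallest p in each direction and assay, of which a part is printed, and the 3 genes most like Depp1. Paralogs were added outside this rule, after their values were seen. Headers inside the Y1cKO RNA-seq tables swap the replicate numbers of the sample titles, and the titles were followed. Proteins were not analysed here. Alternatives covered the pseudocount, filter, scaling, voom on reads, the replicate block and each library left out (for TE, both libraries of the same number). Gene identifiers matched a table of gene names for 17255 of 17264.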

Additional observations from a re-analysis of the deposited data

How the results depend on the processing

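With 2 libraries a group the spread is poorly known, and the Depp1 footprints of 1 library rest on 31 reads. Leaving out each library in turn, limma called 0 to 51 genes by Ribo-seq, 0 to 665 by RNA-seq and 0 to 963 for TE, and 0 to 1, 0 to 2 and 0 to 2 of the 10 genes. Genes at an unadjusted p under 0.05 numbered 347, 1468 and 1021 with all libraries, and 163 to 1410, 272 to 3307 and 176 to 3226 with each left out, so the shares of all genes move too. With neither Y1cKO RNA-seq replicate 1 nor Y1CTL RNA-seq replicate 2, 3 genes were called for TE, and Pik3r1 turned to -0.11 by RNA-seq and to 0.02 for TE. With libraries scaled to the same median, Irs1 by Ribo-seq turned to -0.0047 and Depp1 by RNA-seq to -0.12, and 1 RNA-seq neighbour pair was apart. Small log2 fold changes turned sign when libraries were left out in this way. By Ribo-seq they ranged from -0.30 to 0.04 for Insr, -0.10 to 0.11 for Irs1, -0.63 to 0.46 for Pik3r1, -0.02 to 0.06 for Akt2, -0.26 to 0.03 for Tbc1d4, -0.10 to 0.18 for Slc2a4, -0.18 to 0.17 for Foxo1 and -0.33 to 0.03 for Foxo3. By RNA-seq they ranged from -0.37 to 0.02 for Akt2 and -0.19 to 0.29 for Depp1, and for TE from -1.65 to 0.27 for Pik3r1 and -0.05 to 0.43 for Akt2. The cause was not tested. Irs2 by RNA-seq stayed between 1.68 and 2.26 and Depp1 by Ribo-seq between 1.01 and 1.56 under every alternative run. The pseudocounts of 0.1 and 1 RPKM, no filter and voom on reads changed no call and no sign among the 10 genes.

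By the labels each assay took a share of the lysate, but they do not say which libraries came from 1 lysate. A shared number was thus not taken as pairing in the main fits. Deviations from the group means correlated at -0.24 (Y1cKO) and -0.14 (Y1CTL) between RNA-seq and Ribo-seq libraries of the same number, and at -0.02 (RNA-seq) and 0.03 (Ribo-seq) between genotypes. With the replicate block limma called 0 genes in each comparison, also with the RNA-seq numbers crossed for TE, a pairing added after the data were seen.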
